A study of Mus musculus with 6 samples.

Results

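Guidance ligands and receptors of the Eph, ephrin, Slit, Robo and netrin families were examined in whole lung buds of mouse embryos at E11.5. The 36 genes were taken from a list of members of these families, chosen with earlier results of these data known. The families were not covered in full, since Robo3, Ntn3 and Ntn5 were counted among the partner genes described further below. Listed were 9 EphA and 5 EphB receptors, 5 ephrin-A and 3 ephrin-B ligands, 3 Slits, 3 Robos, 2 netrins and 6 netrin receptors. Of these, 35 had a probe set (called a probe here) that the platform annotation assigns to 1 gene, among 19938 genes measured that way, and 34 of the 35 lay outside the dimmest 30% of genes. Ephb2 was the member with no such probe, so its expression was not analysed here, while its upstream window is among those counted below. RNA of 6 samples had been hybridised to MoGene 1.1 ST arrays, and all values are deposited log2 expression values. The 3 control samples carried the Shhcre allele alone. The 3 samples of the double knockout group, called DKO, carried Shhcre and, in addition, floxed Hdac1 and floxed Hdac2 alleles, written Shhcre:Hdac1fl/fl; Hdac2 fl/fl in the labels. Both groups thus carried Shhcre, and both had a mixed background of C57BL/6, 129X1 and 129S1. Shhcre places Cre recombinase under the Sonic hedgehog locus, which is active in the lung epithelium, while mesenchyme, vessels and blood were measured in the same RNA. The labels name the samples biological replicates without giving the number of embryos in each. Any p-value here therefore refers to the scatter among these 6 samples, part of which may be technical.

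Ephrins are ligands that stay bound to the cell membrane and signal on contact to Eph receptor tyrosine kinases. Ephrin-A ligands are held by a lipid anchor and mainly bind EphA receptors, ephrin-B ligands span the membrane and mainly bind EphB receptors, and signals can run in both directions between the touching cells. Slits are secreted ligands of the Robo receptors, and netrins are secreted, laminin-related ligands of Dcc, neogenin and the Unc5 receptors. These systems were first described as guides of growing axons, and they also take part in vessel patterning, tissue boundaries and the branching of epithelia such as the lung.

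Efna3, Unc5a and Epha3 were higher and Efna1 was lower in the DKO buds, and no other member of the list passed the threshold of an adjusted p under 0.05 (limma, Benjamini-Hochberg over all 19938 genes). The 4 calls were 11.4% of the 35 measured members, against 2.41% of all genes and 3.15% of those outside the dimmest 30%. By direction, 3 members rose, against 1.03% of all genes, and 1 fell, against 1.38% of all genes. The largest change was that of the ephrin ligand Efna3, at 1.60-fold, and the smallest called change was that of Efna1, at 1.19-fold. An unadjusted p under 0.05 was found for 14 members, 40.0% of those measured, against 12.8% of all genes and 15.7% of the genes outside the dimmest 30%. Of these, 7 were higher, against 6.00% of all genes, and 7 lower, against 6.83%. The DKO and control values did not overlap for 14 members, also 40.0%, against 18.8% of all genes and 23.0% of those outside the dimmest 30%. They lay above the controls for 8 members, against 8.36% of all genes, and below them for 6, against 10.4%. The members moved in both directions, with 19 changes above 0 and 16 below, and the median log2 change was 0.01, against 0.00 over all genes. The median size of the change regardless of sign was 0.11 on the log2 scale over the members and 0.06 over all genes.

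**Figure D1:**
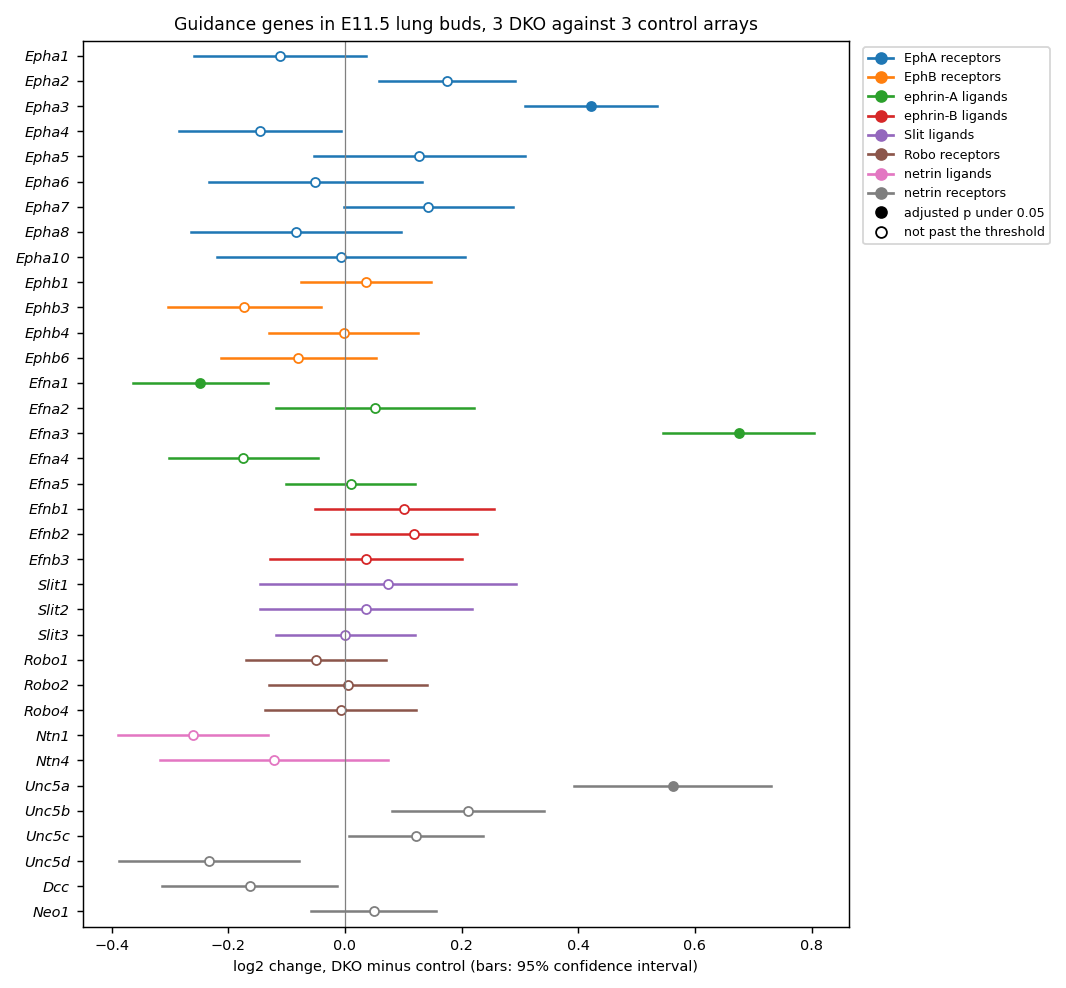
Log2 change of the 35 measured guidance genes, DKO minus control (n = 3 arrays per group), with 95% confidence intervals as bars and colours for the families. Filled points mark an adjusted p under 0.05: Efna3, Unc5a and Epha3 lie at 0.68, 0.56 and 0.42, Efna1 lies at -0.25, and the Slit and Robo genes lie close to 0.

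The targeted genes and the makeup of the tissue moved as follows. Hdac1 fell 1.21-fold (log2 change -0.28, SE 0.05, adjusted p = 0.0193) and Hdac2 stood at -0.04 (SE 0.06, adjusted p = 0.845). The position of these probes relative to the floxed exons is unknown here, so the values do not check the genotype. Over all genes 1.03% rose and 1.38% fell, which is the background for the marker counts that follow. Among 22 measured markers of the lung epithelium 11 fell and 0 rose, with Rab25, Krt18, Foxa1 and Grhl2 at -0.89, -0.86, -0.69 and -0.61. Of 9 smooth muscle genes 6 fell and 1 rose, with Actg2, Cnn1, Myh11 and Acta2 at -0.70, -0.63, -0.60 and -0.44. Of 9 mesothelial genes 3 rose, which were Calb2 (1.28, SD 0.57 in DKO), Upk1b (0.47) and Gpm6a (0.42). Wt1 (-0.02), Msln (0.05), Krt19 (0.08) and Aldh1a2 (-0.06) had overlapping groups. Of 11 cardiac genes 1 rose, Myl7 (0.80). The DKO values lay above all controls for 5 mesothelial and 5 cardiac genes, against 8.36% of all genes. Of 16 mesenchymal genes Fgf10 (1.05) and Meox2 (0.63) rose and Twist2 (-0.28) fell. Of 12 genes of neural crest and neurons 1 fell, Erbb3 (-0.88), a receptor that epithelial cells also carry. No gene passed among 15 endothelial genes, where Tek and Cdh5 both stood at 0.20 and Sox17 at 0.14, or among 9 erythroid genes, where Gata1, Hbb-bh1 and Klf1 stood at 0.27, 0.26 and 0.13. None passed among 11 leukocyte genes, where Tyrobp, Spi1 and Csf1r stood at -0.30, -0.26 and -0.21. An unadjusted p under 0.05 was found for 2, 2 and 5 genes of these 3 lists, against 12.8% of all genes. The 2 endothelial and 2 erythroid genes were higher, against 6.00% of all genes, and the 5 leukocyte genes were lower, against 6.83%. Over all genes, the SD of an array around the mean of its group was 0.0596 to 0.0645 on the log2 scale in control and 0.0705 to 0.105 in DKO, with the highest value in DKO 2.

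**Figure D2:**
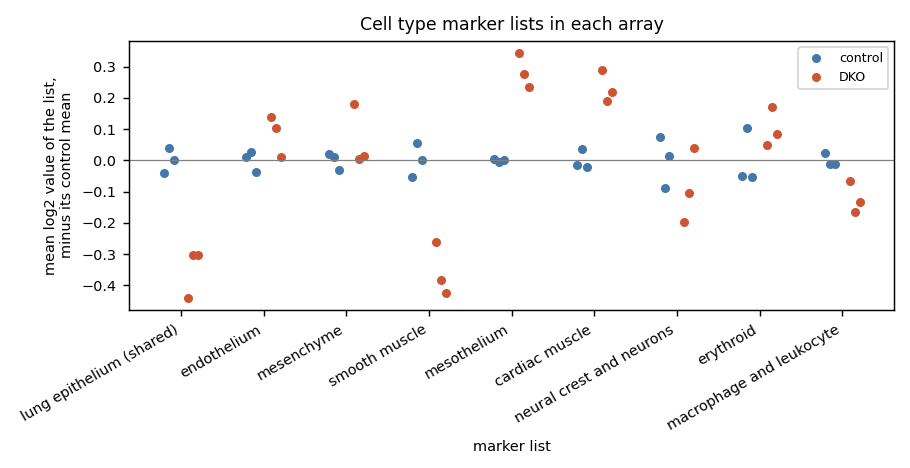
Mean log2 value of each cell type marker list in each of the 6 arrays, after subtraction of the list's control mean. The 3 DKO arrays lie below the 3 control arrays for lung epithelium, smooth muscle and leukocyte genes and above them for the mesothelial and cardiac genes.

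The ephrin-A ligands held the largest rise and the called fall of the list. Efna3 had log2 values of 8.44, 8.29 and 8.39 in controls 1 to 3 and of 9.06, 9.09 and 8.99 in DKO 1 to 3. Every DKO value lay above every control value, with means of 9.05 ± 0.05 (SD, n = 3) against 8.37 ± 0.07 (SD, n = 3). Efna3 thus rose by 0.68 on the log2 scale, with an SE of 0.06 and a 95% interval of 0.55 to 0.80 (adjusted p = 0.000661). Efna1, which is also induced by tumour necrosis factor in endothelial cells, had values of 9.22, 9.29 and 9.24 in control and of 9.04, 9.02 and 8.95 in DKO. Here every DKO value lay below every control value. Efna1 changed by -0.25 on the log2 scale (adjusted p = 0.0420), with an SE of 0.05 and a 95% interval of -0.36 to -0.13. Leaving out control 1, 2 or 3 ended this call (adjusted p = 0.144, 0.185 and 0.168), as did leaving out DKO 1 (0.0642) or DKO 3 (0.148), while it held without DKO 2 (0.0332). It was also lost after a second quantile normalization (0.0526), with all probes as features (0.111) and with ordinary least squares (0.139). Efna4 had values of 10.32, 10.33 and 10.25 in control and of 10.05, 10.20 and 10.13 in DKO. All its DKO values lay below the controls, but the change of -0.17 (SE 0.06) did not pass (adjusted p = 0.196). Efna2 (0.05, 95% interval -0.12 to 0.22) and Efna5 (0.01, 95% interval -0.10 to 0.12) had overlapping groups. The mean log2 level of the 22 epithelial markers was 9.29 to 9.37 in control and 8.89 to 9.03 in DKO. That of the smooth muscle markers was 9.51 to 9.62 in control and 9.14 to 9.30 in DKO. For the leukocyte markers it was 8.13 to 8.17 and 7.98 to 8.08. In bulk RNA, fewer cells of a type and less RNA per cell cannot be told apart. The part of these lower markers in the values of Efna1 and Efna4 was not tested. Nor was the part of the mesothelial and cardiac markers, whose mean levels lay above control in all 3 DKO arrays, in the rise of Efna3.

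Efna1, Efna3 and Efna4 are neighbours on mouse chromosome 3, with Gm15998 as the only measured gene among them in the RefSeq order, and their changes differed in direction. The change of Efna3 exceeded that of Efna1 by 0.92 on the log2 scale (SE 0.06) and that of Efna4 by 0.85 (SE 0.07). Both differences gave p = 0.10 in an exact two-sided permutation test over the samples, the smallest value that 3 arrays against 3 allow. The changes of Efna1 and Efna4 differed by -0.07 (SE 0.06, exact permutation p = 0.40). These 3 pairs were chosen after their values were seen. All DKO values lay above the controls for Efna3 and below them for Efna1 and Efna4. The permutation p of both pairs with Efna3 was therefore fixed at its smallest value and adds no support. The flanking genes did not pass. Slc50a1, a sugar transporter gene next to Efna1, stood at 0.13 (adjusted p = 0.320), with all DKO values above the controls. Gm15998 stood at -0.05 (adjusted p = 0.822). Adam15, which encodes a membrane metalloprotease and lies next to Efna4, stood at 0.06 (adjusted p = 0.812). Within 4 measured genes on either side of Efna3 no gene had a called rise, against 1.03% of all genes. The absence of such a rise thus lies near the background.

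**Figure D3:**
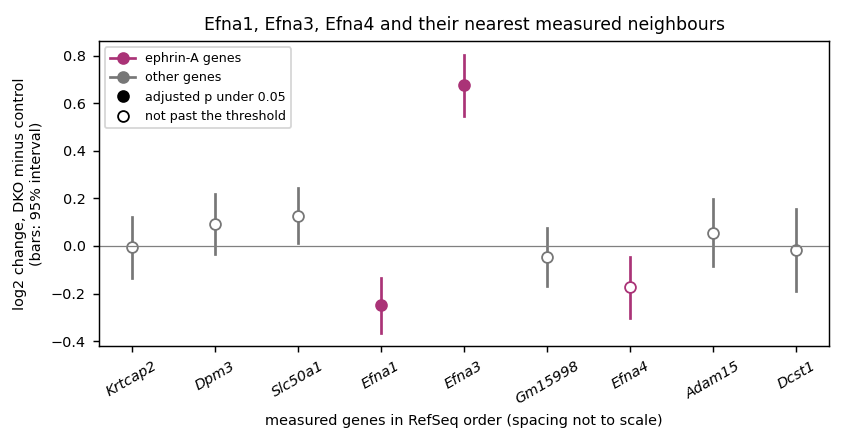
Log2 change (DKO minus control, n = 3 arrays per group, bars for 95% confidence intervals) of Efna3 and the 4 nearest measured genes on each side, in RefSeq gene order and not to scale. Efna3 lies at 0.68, its neighbour Efna1 at -0.25 and Efna4 at -0.17, while the other 6 genes lie between -0.05 and 0.13.

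The sequences just upstream of these 3 ephrin genes are shown because neighbouring genes of 1 family differed in their change. Each is the 250 bases before the RefSeq start of the gene on assembly GRCm38.p6, written 5′ to 3′ on the strand of the gene. Capitals mark the GC box letters GGGCGG or their reverse complement CCGCCC, a motif bound by Sp family factors, counted on both strands with overlapping matches allowed. RefSeq lists 2 such windows each for Efna1 and Efna3, and the more upstream one is printed.
Efna1, chr3:89280952-89281201, minus strand: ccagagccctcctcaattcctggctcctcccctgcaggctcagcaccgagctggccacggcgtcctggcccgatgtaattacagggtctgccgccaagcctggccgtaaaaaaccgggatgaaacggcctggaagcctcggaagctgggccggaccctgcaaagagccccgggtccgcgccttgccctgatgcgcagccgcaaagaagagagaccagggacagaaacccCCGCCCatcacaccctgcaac
Efna3, chr3:89322940-89323189, minus strand: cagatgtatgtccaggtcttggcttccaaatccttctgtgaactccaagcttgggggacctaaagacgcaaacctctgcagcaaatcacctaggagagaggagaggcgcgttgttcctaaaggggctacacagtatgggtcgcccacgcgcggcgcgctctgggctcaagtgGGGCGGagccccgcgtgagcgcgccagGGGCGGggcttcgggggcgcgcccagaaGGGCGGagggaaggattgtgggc
Efna4, chr3:89338029-89338278, minus strand: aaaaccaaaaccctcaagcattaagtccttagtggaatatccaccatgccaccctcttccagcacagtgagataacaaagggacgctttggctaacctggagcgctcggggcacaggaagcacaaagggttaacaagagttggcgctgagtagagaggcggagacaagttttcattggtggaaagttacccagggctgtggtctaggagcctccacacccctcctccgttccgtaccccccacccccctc
The Efna3 window held 3 matches, that of Efna1 held 1 and that of Efna4 held 0. The same windows held 19, 16 and 7 CG dinucleotides. The more downstream windows, not printed, held 3 matches and 31 CG dinucleotides for Efna3 and 2 matches and 18 CG dinucleotides for Efna1. At least 1 match was found in 69.4% of the 36 windows of the listed genes and in 32.7% of 32851 windows of all genes. The median CG dinucleotide count was 18.5 over the listed genes' windows and 6 over all windows. The windows of all genes were not matched to the listed ones in CG content, so these shares do not single out the families. A link between the matches and the changes was not tested. Windows were found for 31 of the 36 listed genes.

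Among the Eph receptors, Epha3 rose and the others did not pass. Epha3 is an EphA receptor that binds ephrin-A ligands and is widely expressed in embryonic mesenchyme. Its log2 values were 10.81, 10.77 and 10.85 in control and 11.25, 11.21 and 11.24 in DKO. All 3 DKO values lay above the controls, with a gap wider than the range within either group. Epha3 rose 1.34-fold, a log2 change of 0.42 with an SE of 0.05 and a 95% interval of 0.31 to 0.53 (adjusted p = 0.00338). The mean log2 level of the 16 mesenchymal markers was 10.31 to 10.36 in control and 10.34 to 10.52 in DKO, so these groups overlapped. The mean of the mesothelial markers was 8.85 to 8.86 in control and 9.09 to 9.20 in DKO. That of the cardiac markers was 8.23 to 8.28 and 8.44 to 8.54. The gene before Epha3 in the RefSeq order, Pros1, which encodes protein S, stood at 0.17 (adjusted p = 0.151), and the next one after it, Csnka2ip, at -0.05 (adjusted p = 0.805). Within 4 measured genes on either side no other gene passed, against 2.41% of all genes called, so this lies near the background. The largest change among these neighbours was that of Nsun3, at 0.31 (SE 0.07, adjusted p = 0.0575), and Epha6 stood at -0.05 (adjusted p = 0.880). The DKO values of Nsun3 and of Pros1 lay above all controls.

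Epha2, an EphA receptor common in epithelia, had values of 8.15, 8.25 and 8.24 in control and 8.37, 8.42 and 8.38 in DKO. The groups did not overlap and the change was 0.18 (SE 0.05), but it did not pass (adjusted p = 0.149). Epha4, a receptor that binds ephrins of both classes, had values of 10.35, 10.43 and 10.41 in control. In DKO it had 10.17, 10.22 and 10.36, so that DKO 3 lay within the range of the controls. Its change was -0.15 (SE 0.06, adjusted p = 0.363). Epha7 ran from 11.51 to 11.67 in control and from 11.65 to 11.82 in DKO, a change of 0.14 (SE 0.06, adjusted p = 0.397). The remaining EphA receptors had overlapping groups, with changes of -0.11 for Epha1, 0.13 for Epha5, -0.05 for Epha6, -0.08 for Epha8 and -0.01 for Epha10. Epha10 and Epha8 varied among the DKO arrays, with SDs of 0.21 and 0.16, against 0.03 and 0.06 in control. A further Epha10 probe gave -0.14.

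Of the 4 measured EphB receptors 0 passed, against 2.41% of all genes, and 1 had an unadjusted p under 0.05, against 12.8%. That was Ephb3, with values of 10.00, 10.01 and 9.94 in control and 9.72, 9.87 and 9.84 in DKO. All DKO values lay below the controls, with a change of -0.17 (SE 0.06, adjusted p = 0.217). Ephb6, which lacks kinase activity, had values of 8.24, 8.29 and 8.23 in control and 8.07, 8.21 and 8.24 in DKO. These groups overlapped (-0.08, SE 0.06, adjusted p = 0.678). Ephb4, the venous receptor of Efnb2, ran from 10.35 to 10.38 in control and from 10.29 to 10.45 in DKO, with a 95% interval of -0.13 to 0.13. Ephb1 stood at 0.04 (95% interval -0.08 to 0.15), and its further probe at 0.09.

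None of the 3 ephrin-B ligands passed, against 2.41% of all genes called. All 3 changes were above 0, that of Efnb3 not without DKO 2 (-0.030). Efnb2, which marks arterial endothelium, had values of 10.24, 10.27 and 10.28 in control and 10.35, 10.38 and 10.40 in DKO. The groups did not overlap, and the change was 0.12 with a 95% interval of 0.01 to 0.23 (adjusted p = 0.332). The 15 endothelial markers had a mean log2 level of 9.55 to 9.61 in control and 9.60 to 9.73 in DKO, and their part in the value of Efnb2 was not tested. Efnb1 had values of 9.66, 9.55 and 9.63 in control and 9.65, 9.85 and 9.65 in DKO. DKO 2 lay above the control range and the other DKO arrays lay within it, and the change was 0.10 (SE 0.07, adjusted p = 0.628). Efnb3 stood at 0.04 (SE 0.07, adjusted p = 0.912).

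**Figure D4:**
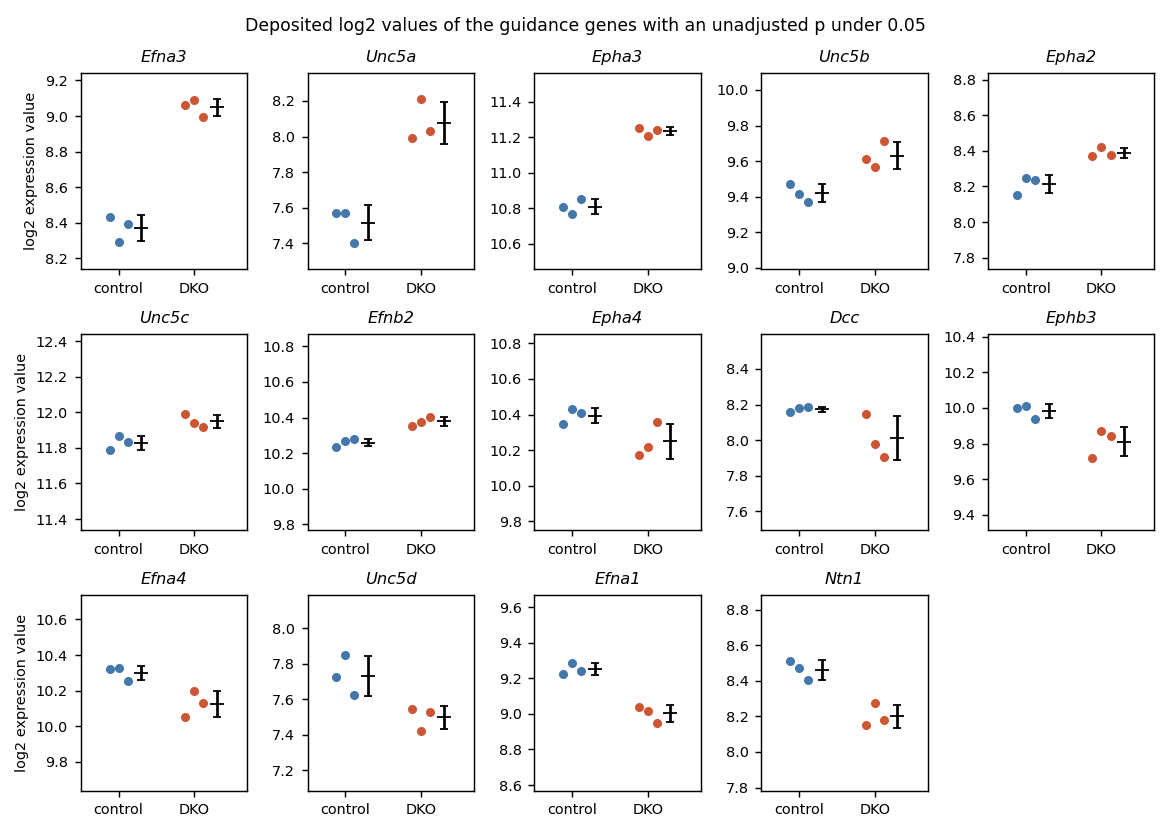
Deposited log2 values of the 14 guidance genes with an unadjusted p under 0.05, in 3 control (left) and 3 DKO (right) arrays, with the group mean and SD as a bar beside the points and axes of equal span. Efna3, Unc5a and Epha3 show the widest gaps between the groups, and Epha4 is the gene here whose groups overlap.

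Of the 6 netrin receptors Unc5a rose, against 1.03% of all genes, and 5 had an unadjusted p under 0.05, against 12.8% of all genes. The Unc5 proteins mediate repulsion from netrin and can trigger cell death when no ligand is bound. Unc5a, best known from neurons, had values of 7.57, 7.57 and 7.40 in control and 7.99, 8.21 and 8.03 in DKO. All DKO values lay above the controls, with means of 8.08 ± 0.12 (SD, n = 3) against 7.51 ± 0.10 (SD, n = 3). Unc5a rose 1.48-fold, a log2 change of 0.56 with an SE of 0.07 and a 95% interval of 0.39 to 0.73 (adjusted p = 0.00594). The mean log2 level of the 12 markers of neural crest and neurons was 7.72 to 7.89 in control and 7.61 to 7.85 in DKO, so these groups overlapped. Of the measured genes next to Unc5a, Tspan17 stood at 0.17 (adjusted p = 0.239) and Hk3 at 0.01 (adjusted p = 0.967). Within 4 measured genes on either side 1 gene passed, against 2.41% of all genes called. That was the FGF receptor gene Fgfr4, which fell (-0.46, SE 0.06, adjusted p = 0.00715). The mean levels of the mesothelial and cardiac markers were also higher in all 3 DKO arrays than in the controls. The part of these markers in the rises of Unc5a and Epha3 was not tested.

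Unc5b and Unc5c pointed the same way as Unc5a without passing. Unc5b, a receptor also found on endothelial tip cells, had values of 9.47, 9.42 and 9.37 in control and 9.61, 9.57 and 9.72 in DKO. The groups did not overlap, and the change was 0.21 (SE 0.06, adjusted p = 0.122, and 0.0496 without DKO 2). Unc5c had values of 11.79, 11.87 and 11.83 in control and 11.99, 11.94 and 11.92 in DKO. Its groups did not overlap either, with a change of 0.12 (SE 0.05, adjusted p = 0.353). Unc5d and Dcc pointed the other way. Unc5d had values of 7.73, 7.85 and 7.62 in control and 7.55, 7.42 and 7.53 in DKO, a change of -0.23 (SE 0.07, adjusted p = 0.148), and its further probe gave -0.14 with overlapping groups. Dcc, which mediates attraction to netrin, had values of 8.16, 8.18 and 8.18 in control and 8.15, 7.98 and 7.91 in DKO. DKO 1 lay just under the controls, and the change was -0.16 (SE 0.07, adjusted p = 0.338). Neo1, which encodes the Dcc relative neogenin, had values of 11.67, 11.64 and 11.65 in control and 11.69, 11.72 and 11.68 in DKO. The groups did not overlap, but the change was 0.05 with an SE of 0.05 (adjusted p = 0.775).

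Both listed netrin ligands were below control without passing. Among the partner genes, Ntn3 stood at -0.16 (adjusted p = 0.461) and Ntn5 at 0.12 (adjusted p = 0.537). Ntn1, which encodes netrin-1, the ligand of Dcc, neogenin and the Unc5 receptors, had values of 8.51, 8.47 and 8.40 in control and 8.15, 8.27 and 8.18 in DKO. All DKO values lay below the controls, and the change of -0.26, with a 95% interval of -0.39 to -0.13, missed the threshold (adjusted p = 0.0526, and 0.0186 without DKO 2). Ntn4 had values of 7.65, 7.65 and 7.72 in control and 7.41, 7.76 and 7.47 in DKO. DKO 2 lay above the controls and the others lay below them, for a change of -0.12 (SE 0.09, adjusted p = 0.663). Without DKO 2 the change of Ntn4 was -0.23 (adjusted p = 0.0493). As for Efna1, the part of the lower epithelial, smooth muscle and leukocyte markers in these values was not tested.

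The upstream windows of the other genes that rose are shown for comparison with that of Efna3, by the same conventions.
Epha3, chr16:63864176-63864425, minus strand: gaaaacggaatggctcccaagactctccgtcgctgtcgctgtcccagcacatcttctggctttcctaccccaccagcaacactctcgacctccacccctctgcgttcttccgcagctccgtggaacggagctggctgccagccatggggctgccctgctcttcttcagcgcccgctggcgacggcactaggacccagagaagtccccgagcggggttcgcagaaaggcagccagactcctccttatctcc
Unc5a, chr13:54949161-54949410, plus strand: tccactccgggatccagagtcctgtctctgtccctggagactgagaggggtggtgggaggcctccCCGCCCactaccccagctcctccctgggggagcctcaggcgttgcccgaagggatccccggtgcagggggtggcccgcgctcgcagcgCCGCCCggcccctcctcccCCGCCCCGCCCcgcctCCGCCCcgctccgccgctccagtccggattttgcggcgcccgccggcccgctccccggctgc
The Unc5a window held 5 matches to the GC box letters and 25 CG dinucleotides, and the Epha3 window held 0 matches and 16 CG dinucleotides. The 3 genes that rose differed in these counts, and a link between the matches and the changes was not tested.

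The Slit ligands and Robo receptors showed no called change. Of these 6 genes 0 passed with limma, 0 had an unadjusted p under 0.05, and all 6 had overlapping groups. Over all genes these shares were 2.41% called, 12.8% with an unadjusted p under 0.05 and 18.8% without overlap, so counts of 0 among 6 genes lie near the background. Slit2, the most studied of the Slits, had values of 9.77, 9.90 and 9.94 in control and 10.02, 9.74 and 9.95 in DKO. Slit1 had values of 7.24, 7.12 and 7.24 in control and 7.14, 7.51 and 7.17 in DKO, with DKO 2 above all other arrays. Slit3 ran from 11.07 to 11.12 in control and from 11.04 to 11.16 in DKO. The 95% intervals of the changes were -0.15 to 0.29 for Slit1, -0.15 to 0.22 for Slit2 and -0.12 to 0.12 for Slit3. Robo1 had values of 11.07, 11.12 and 11.10 in control and 11.00, 11.12 and 11.02 in DKO. Robo4, the Robo of endothelium, had values of 8.70, 8.64 and 8.65 in control and 8.59, 8.75 and 8.62 in DKO. The 95% intervals were -0.17 to 0.07 for Robo1, -0.13 to 0.14 for Robo2 and -0.14 to 0.12 for Robo4.

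Genes that act with these ligands and receptors inside the cell or at its surface did not pass either. Of 66 measured partner genes limma called 0 in either direction, against 2.41% of all genes, and 7 had an unadjusted p under 0.05, against 12.8% of all genes. Of these, 1 was higher and 6 were lower, against 6.00% and 6.83% of all genes, so the counts lay near the background. Among 27 partners of the Eph receptors, the adaptor Nck2 stood at -0.21 (adjusted p = 0.192), the adaptor Dok1 at -0.17 (adjusted p = 0.465) and the Rac-inhibiting chimaerin Chn2 at 0.17 (adjusted p = 0.176). Among 19 partners of Slit and Robo, Arhgap17 stood at -0.20 (adjusted p = 0.0958), and the heparan sulfate proteoglycans Sdc4 and Gpc1 at -0.18 and -0.16. Among 21 partners of the netrin system, the neogenin ligand Rgma stood at -0.17 (adjusted p = 0.196), Ntn3 at -0.16 and Dscaml1 at 0.16. The median changes of these 3 lists were -0.01, -0.02 and -0.01.

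The rises of Efna3, Epha3 and Unc5a passed whichever array was left out, with highest adjusted p-values of 0.00639, 0.0265 and 0.0294. Their changes then ranged from 0.63 to 0.71 for Efna3, from 0.40 to 0.44 for Epha3 and from 0.50 to 0.61 for Unc5a. With ordinary least squares, which does not share the spread between genes, their adjusted p-values were 0.0791, 0.0694 and 0.171, and that fit called 4 rises and 12 falls among all genes.

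**Figure D5:**
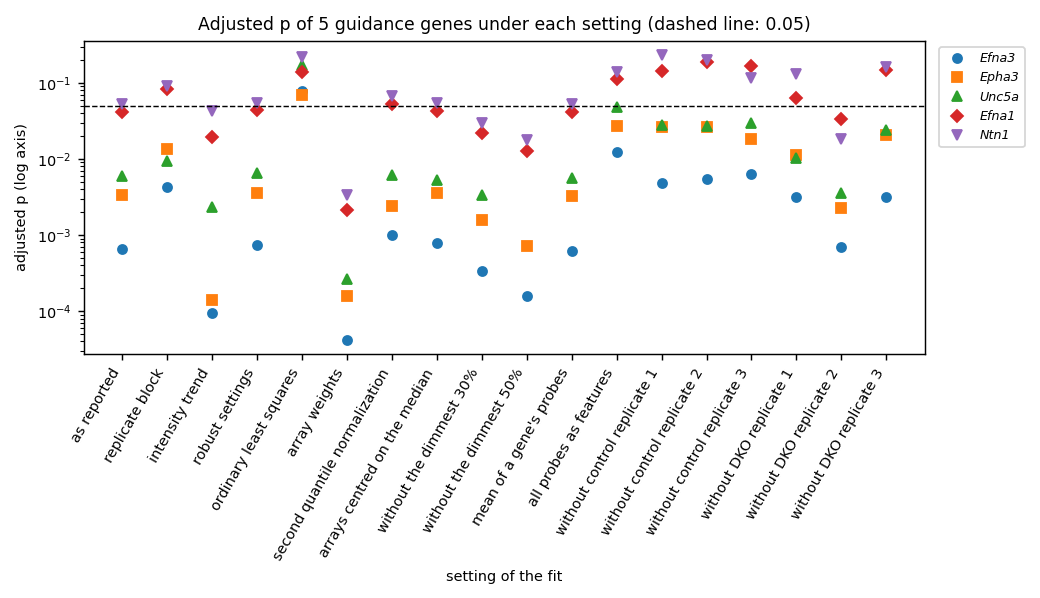
Adjusted p (log axis) of 5 guidance genes under the reported fit and each alternative, with a dashed line at 0.05. Efna3, Epha3 and Unc5a lie under the line in every setting shown except ordinary least squares, and Unc5a has no value without the dimmest 50% of genes, where it was filtered out. Efna1 and Ntn1 lie on both sides of the line.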

How the data were processed

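The authors deposited 1 log2 expression value for each of 35556 probes on 6 arrays. Per the submitters' processing notes, the tools were oligo, RMA and limma, without versions or settings. RMA makes the array distributions alike, so a change common to all genes cannot be seen. The table does not state its log base, and base 2 was inferred from the use of RMA and from values of 3.42 to 14.27. The number of arrays limits the precision, and no scanner files were used here.

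Samples were grouped by their titles. The platform annotation lists 1 gene for 21789 probes and several for 1621, and 12146 were unnamed here. Names were checked against RefSeq (GRCm38.p6) by Entrez identifier, with 19856 genes matched and 82 kept as the platform names them. Each of the 19938 genes was represented by its brightest probe (highest mean of the 6 arrays). In R 4.3.3, groups were compared with limma 3.58.1 (two-sided, default lmFit and eBayes), with group as the only term and Benjamini-Hochberg adjustment over all genes. The script was tested on simulated data. Promoter sequences came from RefSeq.

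The members and gene lists were chosen with earlier results of these data known. Every member is named, and values per array are given for members with an adjusted or unadjusted p under 0.05 and the 2 with the largest change in each family. Of each other list, up to 4 genes past the threshold are named, or the 3 with the largest change where none passed. Robo3, Ntn5 and the mesothelial genes with overlapping groups are named in addition. Alternatives were the replicate block, an intensity trend, robust settings, ordinary least squares, array weights, further normalizations, filters on dim genes, other probe rules and leaving out each array.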

Additional observations from a re-analysis of the deposited data

How the results depend on the processing

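The 3 rises and 1 fall among the guidance genes became 7 and 6 with array weights (1006 rises and 997 falls over all genes) and 0 and 0 with ordinary least squares (4 and 12 over all genes). The fall became 0 with the replicate block, with a second quantile normalization and with all probes as features, and 2 with an intensity trend or without the dimmest 30% or 50% of genes, where Ntn1 joined Efna1. Without the dimmest 50% Unc5a was left out and Unc5b passed (adjusted p = 0.0477). Leaving out 1 array gave 3 to 4 rises and 0 to 3 falls, with the highest counts without DKO 2. The replicate numbers did not pair the arrays (correlations of deviations -0.06, 0.05 and 0.16). With the block, Efna1 had an adjusted p of 0.0836, and the calls of Efna3, Epha3 and Unc5a held. The partner genes had 0 rises throughout, and falls of 1 with an intensity trend or without the dimmest 50%, 6 with array weights and 0 to 2 without single arrays. The marker genes, with 7 rises and 19 falls, had 17 rises with array weights, 0 and 1 with ordinary least squares, 3 and 7 over all probes, and 4 to 11 and 7 to 20 without single arrays. All genes, with 206 rises and 275 falls, had 337 rises with an intensity trend, 82 and 126 calls over all probes, and 83 to 385 and 112 to 426 without single arrays.

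Changes of sign were found for genes near 0 that passed in no setting. Epha10 stood at 0.0033 and Ephb4 at 0.0024 after a second quantile normalization, Ephb4 at 0.00098 after centring, and Slit1 at -0.021 with array weights. Without single arrays the changes ranged from -0.14 to 0.011 for Epha6, -0.12 to 0.081 for Epha10, -0.046 to 0.037 for Ephb4, -0.0034 to 0.031 for Efna5, -0.030 to 0.099 for Efnb3, -0.047 to 0.14 for Slit1, -0.021 to 0.12 for Slit2, -0.025 to 0.034 for Slit3, -0.038 to 0.042 for Robo2 and -0.054 to 0.023 for Robo4. The causes were not tested. No detection values were used here, so whether the dimmest members were above background is unknown.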
